A study of Mus musculus with 45 samples.

Results

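The passive effect of the short protocol (SP) was measured by comparing mouse hippocampal primary neurons in which AP firing was stopped midway through the hour with neurons that kept firing for the whole hour. The comparison used the 5 libraries labelled as 0.5 h of bicuculline (Bic) followed by 0.5 h of tetrodotoxin (TTX) without NMDA, and the 5 libraries of 1 h Bic with no later drug, which are 10 of the 45 libraries of the series. Libraries were chosen by these labels alone and were paired by the number of the culture preparation (1, 3, 6, 7 and 8), so that each of the 5 preparations gave a library to each group. The neurons came from newborn C57BL/6N mice, had received the antimitotic AraC on day 3 in culture and were treated on day 10 or 11 per the labels (day 11 in the description of the sequencing). Bic (50 µM) blocks GABA type A receptors and so sets off synchronous AP firing, and TTX (1 µM) blocks voltage-gated sodium channels and thus AP firing. Bic was still present while TTX acted, so both groups had Bic for 1 h in all and differed in the TTX of the last 0.5 h. Untreated control cultures, 0.5 h Bic, 2 h Bic and the long protocol (LP; 1 h Bic, then 1 h with TTX added), each with 5 libraries of the same preparations, were used for reference only. The labels call the cells neurons, but the cultures also held other cell types, and in such bulk RNA fewer cells of a type and less RNA per cell cannot be told apart.

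AP firing lets calcium into neurons through synaptic NMDA receptors and voltage-gated calcium channels, and the resulting kinase signals act on factors already bound at promoters and enhancers, such as CREB and SRF. Within minutes this starts the transcription of immediate early genes, among them the AP-1 factors Fos and Junb, the Egr and Nr4a families and Npas4, and of feedback inhibitors that later shorten the signal. Many of these mRNAs are unstable, so that their levels follow ongoing transcription closely. When firing stops, new transcription and the decay of what has been made set together how far a level has moved from that of neurons that went on firing.

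The libraries held 17.2 to 44.2 M counts on genes after 1 h Bic and 23.1 to 74.0 M with TTX. No pair of libraries was identical, and mitochondrially encoded genes took 0.614% to 0.829% of counts after 1 h Bic and 0.665% to 1.02% with TTX. Neuronal markers were present in every library, with summed levels of 9 markers (Map2, Snap25, Syt1 and others) of 8156 to 9353 CPM (the counts of a gene scaled to the size of the library) after 1 h Bic and 7776 to 9023 CPM with TTX. The summed levels of 7 microglial markers were 6.31 to 9.67 and 7.30 to 11.5 CPM. Preparation 3 stood apart: over the 71 genes found lower with TTX, its median log2 ratio of TTX to 1 h Bic was −0.33, against −0.64 to −0.71 in the other 4 preparations. It had the smallest reduction of the 5 in 52 of these genes, the lowest level after 1 h Bic in 40 and the highest level with TTX in 27. In the LP, the median over the same genes was −0.65 in preparation 3 and −0.58 to −0.85 in the others. What set preparation 3 apart was not tested.

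Promoters are shown first, because CREB, the factor that binds the cAMP response element (CRE), is a well known regulator of activity-induced genes. For 5 lower genes that were called in every processing alternative and were picked because their promoters hold CRE letters, which 21 of the 51 lower genes with a promoter do not, the 250 bases before the annotated start are printed (RefSeq, GRCm38.p6, read along the gene's own strand). Capitals mark TGACG on either strand (written CGTCA where it lies on the other strand), the letters that a full CRE, TGACGTCA, holds on both strands.
Dusp1, chr17:26508473-26508722, minus strand: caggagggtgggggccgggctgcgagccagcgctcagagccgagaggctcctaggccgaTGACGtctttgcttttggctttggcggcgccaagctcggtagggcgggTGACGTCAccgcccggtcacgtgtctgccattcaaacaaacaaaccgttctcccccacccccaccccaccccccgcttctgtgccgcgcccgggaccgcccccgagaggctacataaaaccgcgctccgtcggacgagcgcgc
Npas4, chr19:4989972-4990221, minus strand: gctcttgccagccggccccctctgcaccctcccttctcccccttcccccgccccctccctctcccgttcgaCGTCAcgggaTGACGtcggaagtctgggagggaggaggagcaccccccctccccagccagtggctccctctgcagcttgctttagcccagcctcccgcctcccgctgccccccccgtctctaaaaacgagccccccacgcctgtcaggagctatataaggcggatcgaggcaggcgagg
Nr4a1, chr15:101266596-101266845, plus strand: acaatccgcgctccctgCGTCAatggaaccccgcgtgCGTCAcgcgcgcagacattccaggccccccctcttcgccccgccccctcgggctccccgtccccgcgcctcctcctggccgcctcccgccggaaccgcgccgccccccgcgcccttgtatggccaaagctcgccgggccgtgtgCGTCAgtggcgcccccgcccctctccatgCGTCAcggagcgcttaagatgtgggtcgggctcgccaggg
Btg2, chr1:134079156-134079405, minus strand: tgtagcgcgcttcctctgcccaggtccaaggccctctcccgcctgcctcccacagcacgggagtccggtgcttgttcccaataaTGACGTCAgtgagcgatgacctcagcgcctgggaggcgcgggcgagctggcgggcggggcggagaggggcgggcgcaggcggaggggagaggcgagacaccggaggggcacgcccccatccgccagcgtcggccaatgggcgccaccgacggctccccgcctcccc
Plk2, chr13:110394794-110395043, plus strand: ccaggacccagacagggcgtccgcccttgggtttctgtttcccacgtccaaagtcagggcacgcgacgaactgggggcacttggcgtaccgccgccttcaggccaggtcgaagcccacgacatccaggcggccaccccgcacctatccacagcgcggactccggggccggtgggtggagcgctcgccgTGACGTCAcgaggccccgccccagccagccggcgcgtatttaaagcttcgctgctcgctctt

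Of the 71 genes lower with TTX, 51 had a promoter in the RefSeq table, and TGACG stood on either strand in 30 of them (58.8%). The share was 29.9% over the 11499 tested genes with a promoter and 19.8% over all 27025 genes in the table. By window, since a gene can have several starts, it was 53.3% for the lower genes, 25.5% for the tested genes and 17.8% for all 32851 windows. The full TGACGTCA was found in 6 of the 51 genes (11.8%; Arl4d, Btg2, Dusp1, Maff, Nfkbid and Plk2), against 3.02% of tested genes and 1.77% of all genes in the table. TATAAA, the TATA box, was found in 17.6% of the lower and 8.15% of the tested genes (14.3% of all genes in the table). The AP-1 site TGANTCA was found in 1.96% against 5.39% (7.82% of all genes in the table). For the EGR site GCGTGGGCG the shares were 1.96% against 1.23% (0.622%), and the CArG box of SRF was in 0 of 51 against 1.43% (1.62%). Shares are descriptions of these letters in this window only, and enhancers, where much activity-regulated binding lies, were not examined.

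The other sequences shown are those of miR-212 and miR-132, the activity-regulated microRNAs that lie in tandem inside the non-coding host gene 1700016P03Rik (chr11:75172560-75177633, plus strand, GRCm38), all 3 of which were lower with TTX. Capitals mark the seed, bases 2 to 8.
miR-212-3p, chr11:75173443-75173464: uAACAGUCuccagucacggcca
miR-132-3p, chr11:75173723-75173744: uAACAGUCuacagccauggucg
miR-212-5p, chr11:75173403-75173425: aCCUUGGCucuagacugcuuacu
miR-132-5p, chr11:75173686-75173707: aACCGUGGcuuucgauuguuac
The 3p arms of both hairpins share the seed AACAGUC, whereas the 5p arms have different seeds. The libraries were made from poly-A RNA, so counts on Mir212 and Mir132 are of the primary transcript over the hairpins and not of mature microRNA.

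Across the 15540 genes tested, 71 were lower with TTX than after 1 h Bic (0.457% of genes tested) and 5 were higher (0.0322%), together 0.489%, at an adjusted p-value under 0.05 in edgeR's quasi-likelihood test with the preparation as a block. At an unadjusted p-value under 0.05, 682 genes were lower (4.39%) and 540 higher (3.47%), and the median log2 fold change of all genes was −0.00, and 71 of the 76 calls lay on the side of reduction. Of the 71, 14 were lower by more than 1 on the log2 scale, 30 by 0.5 to 1 and 27 by less than 0.5. In 69 of them the level was lower in all 5 preparations (5.05% of all genes tested were), and in 44 every TTX library lay below every 1 h Bic library (0.611% of all genes tested). Without preparation 3, 110 genes were lower and 5 higher, without preparation 6, 134 and 53, and without preparation 1, 39 and 2. Without preparation 7 or without preparation 8, 32 genes were lower and none higher (411 and 463 higher at an unadjusted p-value under 0.05), and all 71 kept their negative sign in each of these fits.

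**Figure D1:**
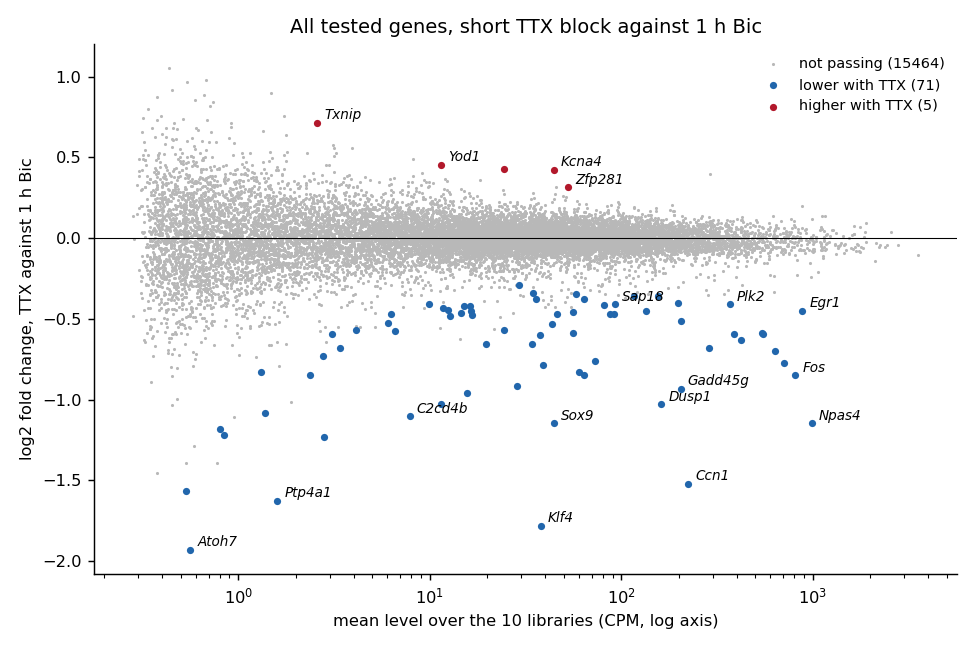
Log2 fold change of TTX against 1 h Bic (vertical axis) against the mean level over the 10 libraries in CPM (horizontal axis, log scale) for the 15540 genes tested. Blue points are the 71 genes that were lower and red points the 5 that were higher in edgeR's test, and grey points did not pass; the lower genes reach a log2 fold change of −1.93, whereas the higher genes end at 0.71.

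Npas4, a neuron-specific activity-induced transcription factor that controls inhibitory synapses (chr19:4984355-4990316), was among the genes with the smallest p-values. Its levels after 1 h Bic were 1469, 1042, 1283, 1453 and 1552 CPM in preparations 1, 3, 6, 7 and 8, and with TTX 646, 605.5, 528, 598 and 676 CPM. The groups did not overlap, and the lowest 1 h Bic library (preparation 3) was still above the highest TTX library. The log2 fold change was −1.15 ± 0.07 (SE; edgeR adjusted p = 3.4e-06), a fall to 611 ± 55.9 CPM with TTX from 1360 ± 203 CPM (mean ± SD, n = 5). Control cultures had 47.3 ± 15.2 CPM and cultures at 0.5 h Bic, when TTX was added, 646 ± 58.5 CPM, so that the level with TTX lay near that at the time of the block.

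The AP-1 factors, leucine zipper proteins that bind DNA as dimers, were lower in 6 of 11 tested members (0.457% of all genes were) and higher in none, and their median log2 fold change was −0.59 against −0.00 for all genes. Fos had 1097, 876, 1067, 1084 and 1078 CPM after 1 h Bic and 588, 619, 549, 565 and 563 CPM with TTX. The libraries of each group were tightly grouped apart from the lower Fos level of preparation 3 after 1 h Bic, and the log2 fold change was −0.85 ± 0.07 (edgeR adjusted p = 2.6e-05). Junb, a dimer partner of Fos, fell by 0.70 on the log2 scale (from 790 ± 142 to 480 ± 34.1 CPM; edgeR adjusted p = 0.00037). Jun fell by 0.59 and Fosb by 0.59. Atf3, a stress- and activity-induced family member, changed by −0.85 ± 0.14 with wide spread, from 53.8 to 130 CPM after 1 h Bic and from 26.8 to 75.7 CPM with TTX, and the groups overlapped. Maff, a small Maf protein, changed by −0.66 (edgeR adjusted p = 0.043) and was lower in 4 of 5 preparations, preparation 3 being the exception. The calls of Atf3 and Maff were lost without preparation 1, 7 or 8. Fosl2 (−0.35, adjusted p = 0.093), Jund (−0.32, 0.076), Fosl1 (−0.57, 0.19), Mafk (−0.11, 0.77) and Mafg (−0.12, 0.67) did not pass in edgeR.

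Among the zinc-finger Egr factors, Egr4 and Egr1 were lower (0.457% of all genes were) and Egr2 and Egr3 did not pass, although all 4 are classical activity-induced genes. Egr4 changed by −0.63 ± 0.09 (from 514 ± 121 to 326 ± 39.4 CPM; edgeR adjusted p = 0.0038) and Egr1 by −0.45 ± 0.07 (from 1016 ± 129 to 741 ± 66.9 CPM; 0.0059). In both, the libraries of the groups overlapped, since preparation 3 after 1 h Bic lay below the highest TTX library, and each call was lost without preparation 7 or 8 (that of Egr1 also without preparation 1). Egr3 had 357 ± 78.7 CPM after 1 h Bic and 359 CPM with TTX, with a log2 fold change of 0.03 and a 95% interval of −0.15 to 0.22. Egr2 had a log2 fold change of −0.17 (−0.36 to 0.03). The Egr corepressors Nab1 (−0.09) and Nab2 (−0.08) did not pass either.

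Of the 3 orphan nuclear receptors of the Nr4a family, Nr4a1 alone passed (0.457% of all genes were lower). Nr4a1 had 686, 522, 650, 692 and 763 CPM after 1 h Bic and 427, 444, 406, 432 and 471 CPM with TTX, without overlap (log2 fold change −0.60 ± 0.07, edgeR adjusted p = 0.00059). Its TTX level was nevertheless well above the 237 CPM at 0.5 h Bic. Nr4a2 (−0.35, 95% interval −0.54 to −0.16, adjusted p = 0.15) and Nr4a3 (−0.23, −0.42 to −0.04, adjusted p = 0.50) were not called by edgeR, and a difference among the 3 was not tested.

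Of 24 other early transcription factors tested, 5 were lower (Npas4, Klf4, Cebpb, Nfil3 and Per1) and 1 higher (Klf10), where 0.457% and 0.0322% of all genes were. DESeq2 with the preparation as a block called 9 lower and 1 higher. Klf4, a Krüppel-like zinc-finger factor, had 62.1, 54.8, 64.5, 66.4 and 42.1 CPM after 1 h Bic and 17.9, 29.2, 11.3, 19.04 and 11.7 CPM with TTX. All TTX libraries lay below all 1 h Bic libraries, and the log2 fold change of −1.78 ± 0.16 (edgeR adjusted p = 8.1e-05) was the largest among called genes with a mean of at least 1 CPM. Klf4 had risen from 1.68 CPM in the control to 10.6 CPM at 0.5 h Bic. Nfil3, a bZIP repressor of clock output genes, changed by −0.47 and the clock gene Per1 by −0.36, whereas Per2 had 0.09 (edgeR adjusted p = 0.88). Cebpb, a bZIP factor of the C/EBP family, changed by −0.57 but was lower in 4 of 5 preparations only. The calls of Nfil3, Per1 and Cebpb were lost without preparation 1, 7 or 8. Srf had a log2 fold change of −0.03 (95% interval −0.20 to 0.14), Myc −0.04, Klf6 −0.05 and Ier2 −0.35 (edgeR adjusted p = 0.12), and these did not pass.

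**Figure D2:**
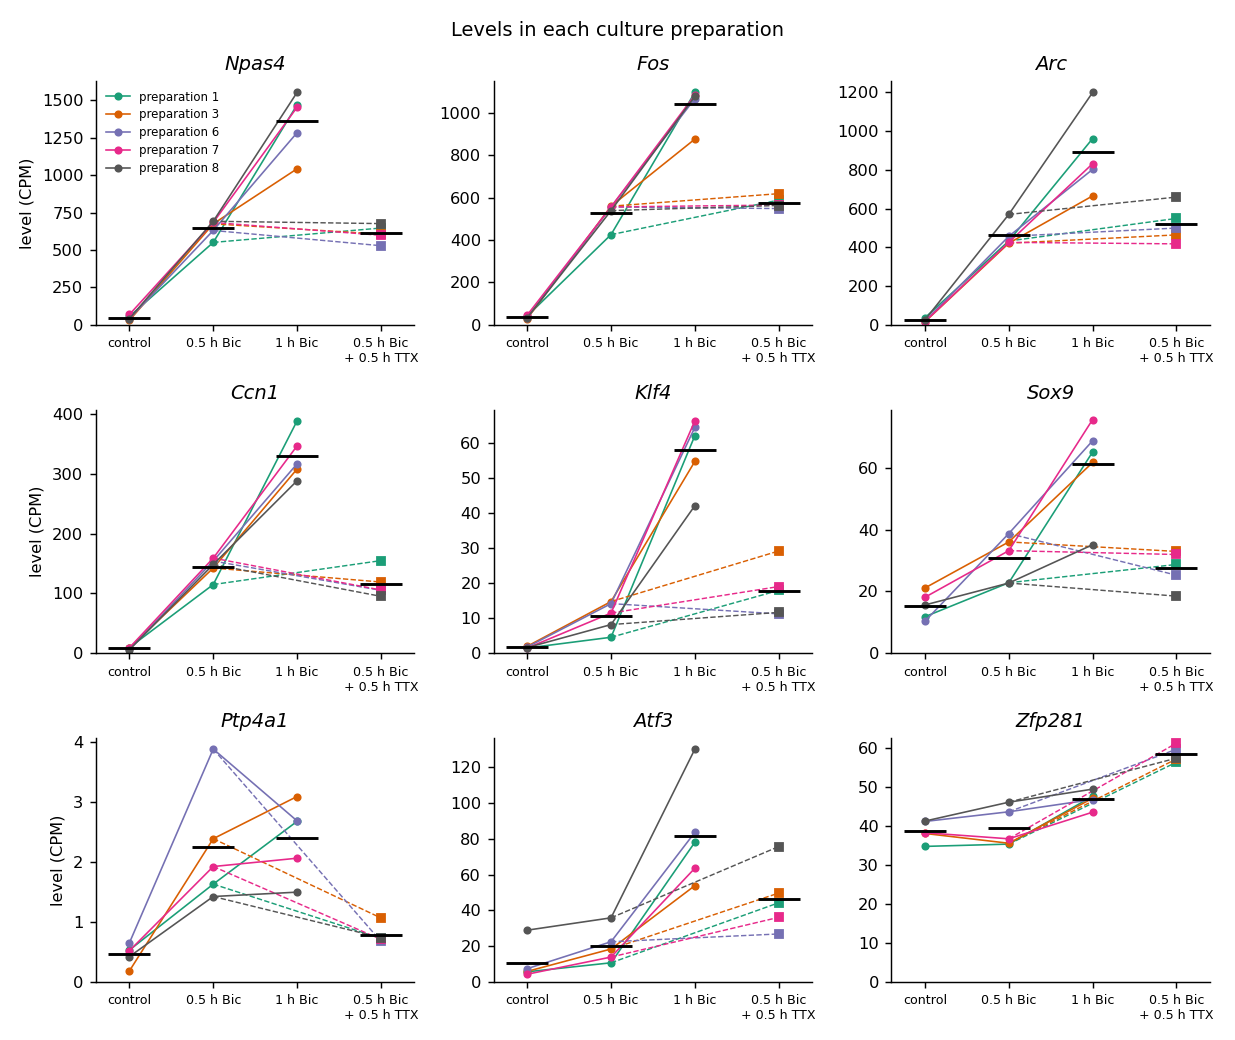
Levels in CPM (vertical axes from 0) of 9 genes in control cultures and those of 0.5 h Bic, of 1 h Bic and of 0.5 h Bic plus 0.5 h TTX (horizontal axis), with a colour per preparation. Black bars are means of 5 preparations, full lines follow uninterrupted Bic and dashed lines lead from 0.5 h Bic to TTX. Npas4, Fos, Arc, Ccn1 and Sox9 with TTX lie near their levels at 0.5 h Bic, Ptp4a1 lies below it, and Atf3 and Zfp281 lie above it.

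Feedback inhibitors of MAP kinase signalling were lower in 2 of 19 tested members (0.457% of all genes were). Dusp1, a nuclear phosphatase that inactivates MAP kinases, had 235, 177, 207, 235 and 230 CPM after 1 h Bic and 122, 110, 87.7, 110 and 103 CPM with TTX. No libraries overlapped (log2 fold change −1.03 ± 0.07, edgeR adjusted p = 1.1e-05). The span of Dusp1 overlaps 2 further annotated genes on its strand, and whether their exons share sequence with it was not examined. Dusp6, the cytoplasmic phosphatase of ERK, changed by −0.40 ± 0.05 (from 224 ± 19.8 to 170 ± 11.3 CPM; 0.0012). Dusp4 (−0.28, adjusted p = 0.099), Dusp5 (−0.09, 0.79), Errfi1 (−0.24, 0.27), Spry2 (−0.18, 0.24) and Spry4 (−0.05, 0.88) did not pass in edgeR. Over the 19 members the median was −0.09.

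Of 15 genes of CREB and cAMP feedback, 3 were lower (0.457% of all genes were), namely Rgs2, Sik1 and Per1. Rgs2, which shortens G-protein signalling, fell from 242 ± 25.7 to 169 ± 7.01 CPM (log2 fold change −0.51 ± 0.06, edgeR adjusted p = 0.00049). Sik1, the inducible kinase that restrains the CREB coactivators, changed by −0.47 ± 0.06 (from 107 ± 10.5 to 77.1 ± 3.80 CPM; 0.0027). For both genes each TTX library lay below each 1 h Bic library. Crem (−0.22), Creb1 (0.12), Crtc1 (−0.04), Pde4b (−0.01) and Pde4d (−0.03) did not pass, and the list's median was −0.04.

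Among 18 short-lived mRNA and kinase regulators, 3 were lower (Trib1, Btg2 and Plk2; 0.457% of all genes were) and the median was −0.26. Trib1, a pseudokinase adaptor of a ubiquitin ligase, had 76.2, 63.5, 75.3, 84.5 and 85.7 CPM after 1 h Bic and 43.5, 46.2, 40.3, 43.8 and 42.2 CPM with TTX (log2 fold change −0.83 ± 0.07, edgeR adjusted p = 8.1e-05). Btg2, an antiproliferative cofactor of mRNA deadenylation, fell from 353 ± 30.9 to 221 ± 23.1 CPM (−0.68 ± 0.06, 9e-05). Plk2, a polo-like kinase that acts in the homeostatic weakening of synapses, had 415, 376, 429, 436 and 442 CPM without and 307, 318, 318.5, 324 and 312 CPM with TTX, a change of only −0.41 that nonetheless left a clear gap between the groups (edgeR adjusted p = 0.0012). Btg1 (−0.43, adjusted p = 0.064), Tob2 (−0.43, 0.087), Sgk1 (−0.25, 0.15) and Pim3 (−0.27, 0.30) were not called by edgeR. By DESeq2 with the preparation as a block, 6 members of this list were lower.

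In a list of 20 activity-regulated effector genes, mostly synaptic or secreted, 4 were lower (0.457% of all genes were; 8 of the 20 by DESeq2 with the preparation as a block). Of these, Arc acts at synapses, whereas Gadd45b, Gadd45g and Ptgs2 are intracellular and not synaptic proteins by their best known roles. Arc, which promotes the endocytosis of AMPA receptors, had 962, 666, 803, 832 and 1200 CPM after 1 h Bic and 549.5, 464, 499.8, 418 and 660 CPM with TTX. The highest TTX library was that of preparation 8, whose 1 h Bic library was also the highest, and the groups still did not overlap (log2 fold change −0.78 ± 0.06, edgeR adjusted p = 4.2e-05). Gadd45g and Gadd45b, which act in DNA repair and demethylation and in stress kinase signalling, fell by 0.93 and 0.76 on the log2 scale. Gadd45g moved from 268 ± 49.9 to 140 ± 16.8 CPM and Gadd45b from 91.6 ± 15.8 to 53.6 ± 3.12 CPM. Ptgs2, the inducible cyclooxygenase, changed by −0.53 ± 0.07 (edgeR adjusted p = 0.0042), and its groups overlapped through preparation 8, with 32.9 CPM after 1 h Bic and 18.99 CPM with TTX. Slower effector genes did not pass: Bdnf had −0.10 (95% interval −0.27 to 0.06), Homer1 −0.13 (−0.28 to 0.02), Nptx2 −0.10 (−0.27 to 0.06) and Inhba 0.07 (−0.11 to 0.26). Pcdh8 (−0.34, adjusted p = 0.065), Scg2 (−0.32, 0.099) and Vgf (−0.23, 0.17) also missed the threshold in edgeR.

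Ccn1, which encodes the secreted matricellular protein also named Cyr61 (chr3:145646976-145649981), had the smallest p-value of all genes. Its levels were 389, 308, 317, 347 and 289 CPM after 1 h Bic and 155, 119, 105, 106 and 95.3 CPM with TTX. Every preparation showed a large drop with little spread, preparation 3 included (log2 fold change −1.52 ± 0.06, edgeR adjusted p = 5.5e-08). Ccn1 was the only 1 of 18 tested SRF and actin cytoskeleton genes that passed (0.457% of all genes were lower). The related Ccn2 had 13.95 CPM after 1 h Bic and 16.01 CPM with TTX (log2 fold change 0.19, 95% interval −0.03 to 0.42), Actb had 0.01, Vcl 0.05 and Zyx 0.02, and the list's median was 0.05. The list left out Arc and Egr1, which the paper names as genes partly under SRF control. Arc (−0.78) and Egr1 (−0.45) were both lower with TTX. The list therefore covers mostly cytoskeletal genes, and whether SRF targets as a class were spared was not tested.

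The microRNA host 1700016P03Rik had 37.8, 36.6, 34.2, 38.3 and 39.4 CPM after 1 h Bic and 21.5, 21.3, 17.8, 16.4 and 21.97 CPM with TTX. The libraries of 1 h Bic were within a narrow range and the groups were far apart (log2 fold change −0.92 ± 0.07, edgeR adjusted p = 1.9e-05). Over the hairpins of Mir212 and Mir132, whose 3p arms carry the shared seed printed above, the levels fell by 0.68 and 0.59 on the log2 scale (edgeR adjusted p = 0.012 and 0.030). These counts were low (4.19 ± 1.01 and 3.71 ± 0.62 CPM after 1 h Bic), the groups overlapped, and the calls were lost without preparation 1, 7 or 8 (that of Mir132 also without preparation 3). The hairpins lie inside the host gene on the same strand, so the 3 values come from overlapping transcript and are not independent.

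Sox9, a transcription factor of astrocytes and neural progenitors, was the only called gene among 7 astrocyte markers (0.457% of all genes were lower). It had 65.2, 61.8, 68.8, 75.6 and 35.1 CPM after 1 h Bic and 28.7, 32.96, 25.3, 31.97 and 18.5 CPM with TTX. Preparation 8 had the lowest level in both groups, and no TTX library reached a 1 h Bic library (log2 fold change −1.15 ± 0.07, edgeR adjusted p = 6.5e-06). Sox9 had 15.4 CPM in the control and 30.7 CPM at 0.5 h Bic. The other 6 astrocyte markers had log2 fold changes above 0, with Gfap at 0.40 (adjusted p = 0.71), Aqp4 at 0.32 (0.48), Gja1 at 0.25 (0.52) and Slc1a3 at 0.09 (0.77) in edgeR. The summed level of the 7 markers was 466.5 to 869 CPM after 1 h Bic and 457.5 to 991 CPM with TTX, and none of the 7 was at 0. Dlx2, a factor of GABA neurons and their precursors, changed by −0.42 (edgeR adjusted p = 0.048) and lost its call without preparation 1, 3, 7 or 8. Beside it, the other 7 GABA neuron markers had log2 fold changes between −0.35 (Vip) and −0.07 (Dlx1), none of which passed in edgeR (0.457% of all genes were lower). DESeq2 with the preparation as a block called 2 of the 8 GABA neuron markers and 1 of 9 neuronal markers lower. At an unadjusted p-value under 0.05 in edgeR, 3 and 1 were lower. The summed level of the 8 GABA neuron markers was 1650 to 2232 CPM after 1 h Bic and 1520 to 1965 CPM with TTX. Its part in the Dlx2 value was not tested.

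Ptp4a1, a prenylated protein tyrosine phosphatase (identifier ENSMUSG00000026064, chr1:30940302-30949309), had 2.68, 3.10, 2.69, 2.06 and 1.497 CPM after 1 h Bic and 0.725, 1.07, 0.676, 0.709 and 0.737 CPM with TTX. The groups did not overlap (log2 fold change −1.63 ± 0.17, edgeR adjusted p = 0.00035). The annotation holds a further gene of the same name at the same place and strand, and reads that overlap both were not counted, so the values cover only sequence that is particular to this identifier. Several other lower genes are small or nested transcripts, and whether their exons share sequence with their hosts was not examined. Gm45263 (−1.57) lies inside Gpm6a, Snora31 (−1.22) inside Tpt1 and the pseudogene Gm16044 (−1.18) inside Inpp5f, all on the strand of the host, while the hosts themselves had log2 fold changes of 0.07, −0.06 and −0.00. All 3 had means under 1 CPM, the libraries of Gm16044 overlapped, and the call of Gm16044 was lost without preparation 1, 7 or 8 and that of Snora31 without 1, 3, 7 or 8. 4931440P22Rik (−1.23 ± 0.13), a transcribed pseudogene on the strand opposite Tiparp, had 3.05 to 4.59 CPM after 1 h Bic and 1.18 to 2.13 CPM with TTX, and was called in every alternative. The counts were strand-specific, and Tiparp on the other strand had −0.21 (edgeR adjusted p = 0.66).

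Other lower genes of known role were few per family. C2cd4b, a nuclear calcium-dependent domain protein, fell from 10.7 to 4.98 CPM, the endothelial proteoglycan gene Esm1 fell by 1.08 on the log2 scale, Tent5a, a non-canonical poly(A) polymerase, by 1.03 and the cyclin-like gene Ccno by 0.96. Among channels and receptors, the potassium channel genes Kcne4 (−0.85) and Kcnf1 (−0.38) and the somatostatin receptor Sstr1 (−0.45) were lower. Alkal2, a ligand of the ALK receptor, changed by −0.79, and the opioid precursor Penk by −0.47. Of 10 tested genes of NF-kB feedback, 2 were lower (0.457% of all genes were), namely Nfkbid (−0.52) and Nfkbiz (−0.48). Nfkbia had 0.14 (95% interval −0.02 to 0.31). Otud1, a deubiquitinase, changed by −0.66 and Sap18, a subunit of the Sin3 corepressor complex, by −0.41 with very little spread, from 101 to 109 CPM after 1 h Bic and from 73.5 to 83.4 CPM with TTX. Sap18 and Otud1 were called in every alternative. The calls of Tent5a, Kcnf1, Alkal2, Penk, Nfkbid and Nfkbiz were lost without preparation 1, 7 or 8, those of Esm1 and Ccno without preparation 7 or 8, and that of Kcne4 without preparation 8.

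**Figure D3:**
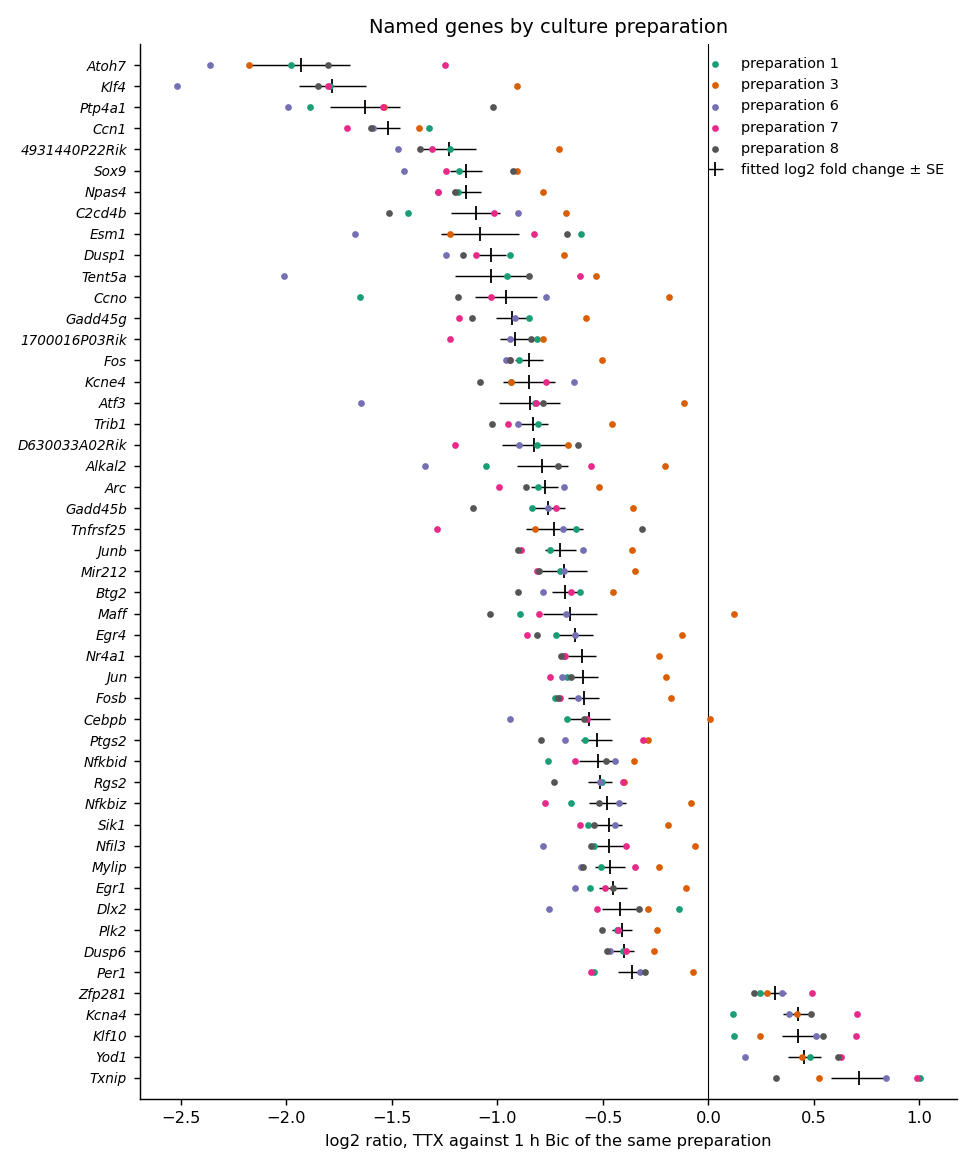
Log2 ratio of TTX to 1 h Bic within each preparation (coloured points, horizontal axis) for the 49 genes named by rule (vertical axis), with the fitted log2 fold change and its SE in black. Points of preparation 3 (orange) lie to the right of the others for most of the lower genes, and all 5 points of each higher gene lie above 0.

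The 5 higher genes were Txnip, Yod1, Klf10, Kcna4 and Zfp281, and each was higher in all 5 preparations (4.44% of all genes tested were). In 3 of the 5 every TTX library lay above every 1 h Bic library (0.393% of all genes tested). Zfp281, a zinc-finger regulator of pluripotency genes, had 47.6, 47.1, 46.7, 43.5 and 49.4 CPM after 1 h Bic and 56.3, 57.1, 59.6, 61.2 and 57.4 CPM with TTX. The spread was small in both groups (log2 fold change 0.32 ± 0.05, edgeR adjusted p = 0.018). Kcna4, a voltage-gated potassium channel of the A type, had 37.8 ± 2.54 and 51.0 ± 7.44 CPM (0.42 ± 0.07, 0.015), and Yod1, a deubiquitinase, 9.65 ± 1.07 and 13.3 ± 1.23 CPM (0.45 ± 0.08, 0.018). Klf10 had 20.8 ± 2.68 and 27.96 ± 4.31 CPM (0.43 ± 0.08, 0.026), and its groups overlapped. Txnip, an inhibitor of thioredoxin, had 1.98 ± 0.74 and 3.21 ± 0.82 CPM (0.71 ± 0.13, 0.029). None of the 5 was called in every alternative, and all 5 calls were lost without preparation 7 or without preparation 8.

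The level at the moment of the block was taken from the 0.5 h Bic cultures, which share no library with 1 h Bic but whose comparison with TTX shares the TTX libraries with the main one, so the values are given side by side. Going on with Bic from 0.5 to 1 h, 239 genes rose (1.61% of 14806 tested) and 47 fell (0.317%). Against 0.5 h Bic, 93 genes were higher with TTX (0.616% of 15091 tested) and 8 lower (0.053%). Calls in either direction fell from 286 to 176 without preparation 7 in the former comparison, and from 101 to 66 and 58 without preparation 1 and 3 in the latter. Npas4, Dusp1, Sox9 and Gadd45g, all lower than after 1 h Bic by 0.93 to 1.15 on the log2 scale, had log2 fold changes of TTX against 0.5 h Bic of −0.08, 0.01, −0.16 and 0.09, none of which passed in edgeR. Fos (0.14, adjusted p = 0.89), Arc (0.16, 0.59) and Btg2 (0.26, 0.56) were likewise not called against 0.5 h Bic. In other genes the level with TTX was above that at 0.5 h Bic although below that of 1 h Bic: Spty2d1 (1.23), Atf3 (1.21), Ptgs2 (1.11), Maff (1.04), Fosb (0.95), Nr4a1 (0.91), Sik1 (0.69), Nfil3 (0.64) and Cwc25 (0.63) rose from 0.5 h Bic. Nfkbiz (0.56), Gadd45b (0.54), Egr1 (0.52), Rasl11a (0.52), Egr4 (0.51), Plk2 (0.47), Per1 (0.39), Otud1 (0.36) and Jun (0.31) rose too. In still others the level with TTX was below that at 0.5 h Bic, as in Ptp4a1 (−1.55 ± 0.23, adjusted p = 0.0057) and Mbd6 (−0.56 ± 0.09, 0.010) by edgeR. Both had about the same level at 0.5 and 1 h Bic (2.25 and 2.41 CPM, and 43.9 and 45.1 CPM). Ccn1 (−0.33, adjusted p = 0.63) was not called.

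The genes that Bic had raised by 0.5 h were counted separately, from the comparison of 0.5 h Bic with control, which shares no library with the main comparison but comes from the same preparations. In that comparison edgeR called 80 genes higher (0.541% of 14783 tested) and none lower (309 lower at an unadjusted p-value under 0.05, and 0 lower and 91 higher by DESeq2 with the preparation as a block). Of these 80 genes, 46 (57.5%) were lower with TTX, none was higher and 34 did not pass, and their median log2 fold change with TTX was −0.44. Among the other 15460 genes tested, 25 were lower (0.162%). The 46 made up 64.8% of the 71 lower genes. Of the 20 genes with the largest rise at 0.5 h, 17 were lower with TTX, and the other 3 were Egr2, Ier2 and Gm24119. The 46 had risen by 0.37 to 4.52 on the log2 scale at 0.5 h (median 1.47) and the 34 by 0.33 to 2.51 (median 0.63). Of the 34, 33 had values below 0, with a median of −0.21, and several were near the threshold, such as Ier5 (−0.32, edgeR adjusted p = 0.051), Ppp1r15a (−0.35, 0.055), Btg1 (−0.43, 0.064) and Tob2 (−0.43, 0.087). Nearer to 0 were Egr3 (0.03), Tob1 (−0.14), Dusp5 (−0.09) and the collagen genes Col4a1 (−0.10), Col4a2 (−0.17), Col5a1 (−0.04) and Col11a1 (−0.11). TGACG stood in the promoter of 67.6% of the 34 genes with a promoter among the 46, and of 51.7% of the 29 with a promoter among the 34. For TGACGTCA the shares were 17.6% and 13.8%, for TATAAA 17.6% and 27.6% and for the CArG box 0% and 6.9%.

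As a description of the gene models, the 71 lower genes were short. Their median span was 5120 bp against 23300 bp for all tested genes, their median exonic length 2660 against 4320 bp and their median number of exons 3 against 8. The genes raised at 0.5 h were short whether they fell with TTX or not, with median spans of 4949 bp for the 46 and 6440 bp for the 34. Of the 71, 62 were protein-coding.

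**Figure D4:**
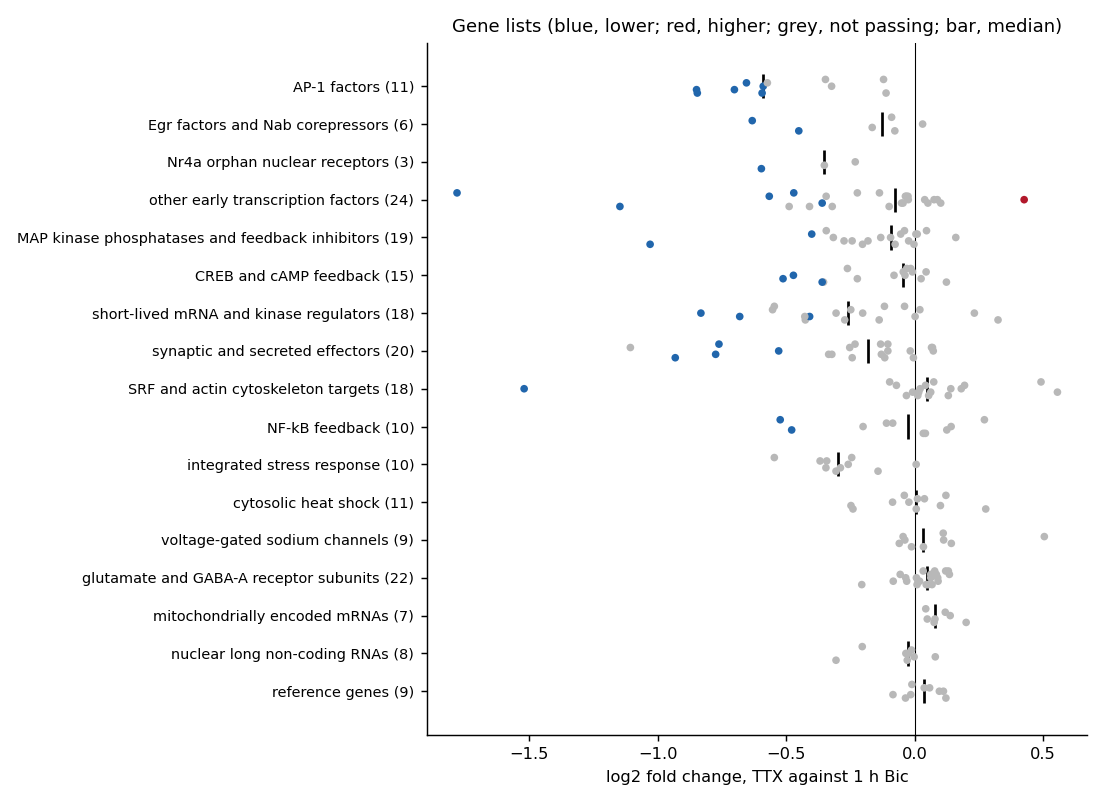
Log2 fold change of TTX against 1 h Bic (horizontal axis) for the tested members of 17 gene lists (vertical axis, number tested in brackets). Each point is a gene, blue if lower, red if higher and grey if it did not pass, and black bars are medians; AP-1 factors have the lowest median (−0.59), and heat shock, channel, receptor, mitochondrial and reference genes lie around 0.

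Listed subunits of sodium channels and of receptors for glutamate and GABA did not pass. None of 9 voltage-gated sodium channel genes, the targets of TTX and their auxiliary subunits, was called (0 at an unadjusted p-value under 0.05, and 0 by DESeq2), and Scn2a had a log2 fold change of 0.11 (95% interval −0.01 to 0.23). None of 22 subunits of glutamate and GABA type A receptors was called (1 lower and 1 higher at an unadjusted p-value under 0.05, and 0 by DESeq2), with values from −0.21 (Grin2d) to 0.13 (Gabra4). Of 10 genes of the integrated stress response none was called by edgeR, but 9 of 10 had negative values with a median of −0.30, 6 were lower at an unadjusted p-value under 0.05, and DESeq2 with the block called 2 lower. Ppp1r15a, which recruits the phosphatase of eIF2α, had −0.35 (95% interval −0.50 to −0.19, edgeR adjusted p = 0.055) and Atf4 −0.29. The 11 cytosolic heat shock genes had a median of 0.01, the 7 mitochondrial mRNAs 0.08, the 8 nuclear long non-coding RNAs −0.03 and the 9 reference genes 0.04, with 0 members called by edgeR and 0 by DESeq2 in each (at an unadjusted p-value under 0.05, 3, 1, 2 and 0 members). Oligodendrocyte lineage (7 tested), microglial (6) and endothelial and fibroblast markers (7) had medians of 0.06, 0.21 and 0.06, with 0 called by either tool and 0 at an unadjusted p-value under 0.05.

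The LP, in which TTX was added after 1 h Bic and acted for 1 h, is the comparison most like this one and shares no library with it. There, 2528 genes were lower (16.2% of 15570 tested) and 2450 higher (15.7%) than after 2 h Bic. The sum of 4978 calls fell to 3285 without preparation 6 and to 3227 without preparation 7. Of the 71 genes lower in the SP, 67 (94.4%) were lower in the LP, 4 did not pass (Tnfrsf25, Sap18, Cwc25 and Mylip) and none was higher. These 67 were 2.66% of the 2516 genes lower in the LP and tested in the SP. Of the 5 higher genes, Kcna4, Klf10 and Yod1 were higher in the LP as well.

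The difference between the SP and LP effects was tested for each gene on the 20 libraries of the 4 groups, where it passed for 323 of 16039 genes (62 with a difference above 0, 0.387%, and 261 below 0, 1.63%) and for 20 of the 76 genes called in the SP. Without preparation 1, 3, 6 or 7 it passed for 202, 132, 192 or 190 genes. For 12 of the lower genes the reduction was smaller in the SP. Ccn1 fell by 1.52 in the SP and by 4.66 in the LP, where it reached 8.15 ± 2.00 CPM from 210 ± 66.5 CPM (control, 8.02 CPM), and the difference was 3.13 ± 0.18 (edgeR adjusted p = 9.7e-10). Trib1 (−0.83 and −3.02), Btg2 (−0.68 and −2.63), Nr4a1 (−0.60 and −2.01), Dusp1 (−1.03 and −2.25), Dusp6 (−0.40 and −1.56), Arc (−0.78 and −1.75) and Gadd45g (−0.93 and −1.77) followed. For 5 lower genes the reduction was larger in the SP: Atoh7 (−1.93 and −0.78), a proneural bHLH gene with a mean under 1 CPM, Esm1 (−1.08 and −0.36), Gadd45b (−0.76 and −0.29), Mylip (−0.47 and 0.02), a ubiquitin ligase of lipoprotein receptors, whose SP call was lost without preparation 1, 7 or 8, and Sap18 (−0.41 and −0.09). The differences of Esm1 and Gadd45b passed only narrowly (edgeR adjusted p = 0.047 and 0.049). Fos (−0.85 and −0.71), Fosb (−0.59 and −0.52), Junb (−0.70 and −0.90) and Rgs2 (−0.51 and −0.49) had differences that did not pass (−0.14 ± 0.12, −0.08 ± 0.14, 0.18 ± 0.15 and −0.02 ± 0.07). Among the higher genes, Klf10 rose by 0.43 in the SP and by 2.07 in the LP, and Zfp281 had 0.32 in the SP and −0.00 in the LP.

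**Figure D5:**
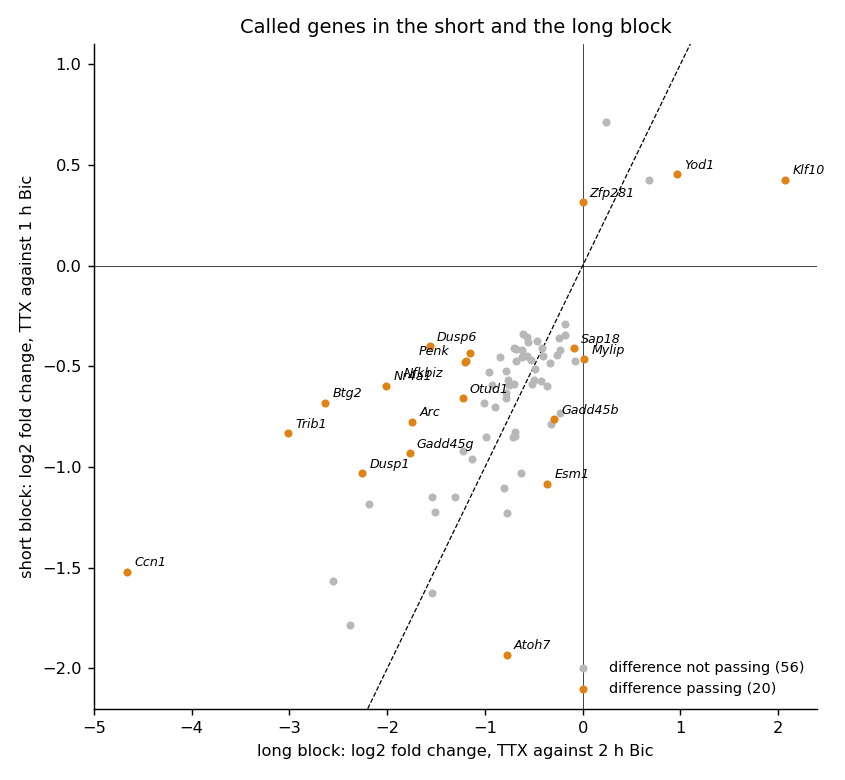
Log2 fold change of TTX against Bic in the SP (vertical axis) and in the LP (horizontal axis) for the 76 genes called in the SP. The dashed line marks equal effects; orange points are the 20 genes whose effects differed in the test of the difference, led by Ccn1 (−1.52 and −4.66), and grey points are the other 56.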

How the data were processed

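Poly-A RNA of mouse hippocampal cultures was made into directional libraries and sequenced single-end for 75 cycles on a NextSeq 500. The deposited values are raw counts of reads per gene, which the authors made with bcl2fastq 2.20.0.422, STAR 2.5.4b on GRCm38 with an Ensembl annotation, and featureCounts 1.6.5 on the sense strand, with multi-mapping and multi-gene reads left uncounted. Of the 54532 genes in the table, 54495 identifiers were found in GENCODE M21, from which positions were taken.

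Here, genes passing filterByExpr were tested with edgeR 4.0.16 (TMM, quasi-likelihood F test, Benjamini-Hochberg adjustment, threshold 0.05; R 4.3.3) on the 10 libraries, with the preparation as a block. The labels say that equal numbers share a culture preparation. Deviations from the group mean correlated between same-numbered libraries by 0.0613 in preparation 6 and 0.339 to 0.682 in the others (mean 0.424, over 13592 genes). The mean of −0.105 for other pairs follows from the centring of each group and is no separate evidence of pairing. Levels are CPM scaled by TMM over all 45 libraries and are not per length, so they compare a gene between samples and not genes with each other. SE is the log2 fold change over the root of F. The difference of the SP and LP effects was an interaction on 20 libraries. Named genes were those with a mean of at least 1 CPM among the 25 lowest and 10 highest fold changes or the 10 smallest p-values, leading members of the gene lists, and leading interactions; others, such as Otud1, Sap18, Spty2d1, Sstr1, Kcnf1, Penk and the nested transcripts, were named after their values were seen. The members and lists were chosen with earlier results of these data known. The alternatives tried were no block, other filters, DESeq2 1.42.0, DESeq2 size factors, all 45 libraries, thinning to equal depth and leaving out each preparation. In the blocked fits, p-values measure how the difference between groups varied from preparation to preparation, with the variance moderated across genes. Counts cover all genes tested, and some results are not reported here.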

Additional observations from a re-analysis of the deposited data

Results flagged for a closer look

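Of the 98 sets of 5 libraries examined (the 49 named genes in both groups), 4 held a library far from the other 4, where chance gives about 1 in 20. These were the high Ptp4a1 level of preparation 3 with TTX (1.07 CPM, the next being 0.737), the low Fos level of preparation 3 after 1 h Bic (876 CPM, the next being 1070), the high Txnip level of preparation 3 with TTX (4.63 CPM, the next being 3.19) and the low Nfkbiz level of preparation 8 after 1 h Bic (14.8 CPM, the next being 20.1).

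For 20 called genes the SP and LP effects differed in edgeR's test of the difference (SP minus LP, log2 scale). Among those reported here, it was above 0 for Ccn1 (3.13), Trib1 (2.18), Btg2 (1.94), Nr4a1 (1.38), Dusp1 (1.22), Dusp6 (1.15), Arc (0.95), Gadd45g (0.83), Penk (0.74), Nfkbiz (0.73), Otud1 (0.58) and Zfp281 (0.32). It was below 0 for Klf10 (−1.64), Atoh7 (−1.14), Esm1 (−0.73), Yod1 (−0.52), Mylip (−0.48), Gadd45b (−0.47) and Sap18 (−0.32). The LP began later and lasted longer than the SP, so that time of block and length of block cannot be told apart.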

How the results depend on the processing

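In the paired design with the replicate block, 71 genes were lower and 5 higher; without the replicate block 34 and 1 were. With the block and no filter on low counts the numbers were 241 and 81, by DESeq2 with the block 112 and 10, in a fit of all 45 libraries 114 and 24, and with counts thinned to the smallest library 49 and 1, while DESeq2 without the block called 74 and 8. Leaving out a preparation gave 32 to 134 lower and 0 to 53 higher genes. All of the 71 that were tested kept their negative sign in every alternative, and 24 were called in each, but none of the 5 higher genes was. Without the block, 1712 genes were called in the LP (4978 with it), 151 for 1 h against 0.5 h Bic (286), 52 for TTX against 0.5 h Bic (101) and 83 for the difference of SP and LP (323). Leaving out a preparation gave 3227 to 5616, 176 to 305, 58 to 147 and 132 to 217 calls for these. Without preparation 6 or 7 the LP calls were 3285 and 3227, without preparation 7 those of 1 h against 0.5 h Bic 176, without preparation 1 or 3 those of TTX against 0.5 h Bic 66 and 58, and without preparations 1, 3, 6 and 7 those of the difference 202, 132, 192 and 190. The causes were not tested. The number of genes raised at 0.5 h stayed within 55 to 103. Genes under 1 CPM, such as Atoh7 and Gm45263, rest on few reads.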
